A study of Rattus norvegicus with 24 samples.

Results

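Estradiol given late was compared with estradiol given throughout in the hippocampus of female rats without ovaries. The comparison used 10 of the 24 sequenced libraries, 5 labelled Treatment and 5 labelled Prevention, picked by those names in the headers of the deposited table. Treatment rats were ovariectomised (OVX), received vehicle for 3 weeks and then estradiol (E2) for 2 weeks. Prevention rats were ovariectomised and received E2 for all 5 weeks. The vehicle groups shown beside them were ovariectomised (OVX, n = 7) or sham operated with ovaries in place (SHAM, n = 7), with 7 weeks of vehicle each. All rats were female and aged 6 months before surgery, bulk total RNA was sequenced, and the dose and route of E2 were not given in the sources used here. Both estradiol groups lack ovaries, and they differ in when E2 began and in how long it was given, so delay and duration cannot be told apart. The vehicle groups also ran 2 weeks longer than the estradiol groups. The labels do not say that replicates came from separate animals, so p-values measure the spread between these libraries, which may be technical.

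Estradiol acts through the nuclear receptors ERα and ERβ, encoded by Esr1 and Esr2, and through the membrane receptor encoded by Gper1. In the hippocampus it is known to shape dendritic spines, synaptic plasticity and the activity of microglia. Whether these actions depend on how soon after ovarian loss estradiol is given is the question behind designs of this kind, often called the critical window.

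Values are normalised counts, and differences are Treatment minus Prevention on the log2(normalised count + 1) scale, which understates the change of low genes. Column totals of the 10 libraries ran from 35.6 to 38.8 M normalised counts. Hippocampal genes were present throughout: Prox1, a transcription factor of dentate granule cells, lay between 2164 and 3621 in Treatment and between 2551 and 4056 in Prevention libraries, and Wfs1, a gene enriched in CA1, between 9604 and 22620 in Treatment and between 10467 and 18657 in Prevention libraries. RNA of neighbouring tissue was present in unequal amounts. The sum of 20 thalamic markers lay between 31854 and 50183 in Treatment and between 33945 and 57828 in Prevention libraries, with Treatment replicate 6 and Prevention replicates 1 and 4 highest and Shox2 and Gbx2 at 0 in at least 1 Treatment library. The sum of 19 choroid plexus markers lay between 5731 and 116348 in Treatment and between 7342 and 117224 in Prevention libraries, with none at 0. The feature LOC257642 split the libraries into 2 sets, here called high and low. It measured 728400 and 116940 in Treatment replicates 1 and 2 and 23381, 23655 and 19740 in replicates 5, 6 and 7, against 128840 to 868950 in Prevention libraries. All 5 Prevention libraries are thus in the high set, Treatment is divided between both, and every OVX and SHAM library, at 16621 to 38551, is in the low set. These sets were defined from the measured values and no label names a batch, so differences use all 5 Treatment libraries and set differences are given beside many of them.

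No gene passed an adjusted p of 0.05 in limma (0 of 16119, 0%). Trnp1 and Nkx2-4 came closest, both lower in Treatment with an adjusted p of 0.0510. At an unadjusted p under 0.05 there were 868 genes (5.38%), of which 445 were higher (2.76%) and 423 lower (2.62%) in Treatment. Of all tested genes 48.9% had a positive difference, the median difference was -0.00235, and the median SE of a difference was 0.0943. Every Treatment library lay above every Prevention library for 88 genes (0.546%) and below for 105 (0.651%), 193 genes together (1.2%). The count of 0 depended on single libraries: 8 genes passed without Treatment replicate 1, 11 without Treatment replicate 2 and 2 without OVX replicate 7. In the other direction, the smallest adjusted p in limma was 0.307 with the 10 estradiol libraries alone and 0.35 without Prevention replicate 1. Treatment replicates 1 and 2 are the only Treatment libraries of the high set, so leaving out either makes the groups differ more by set. LOC257642, which defines the sets, and LOC500035 were among the 8 that passed without Treatment replicate 1.

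**Figure D1:**
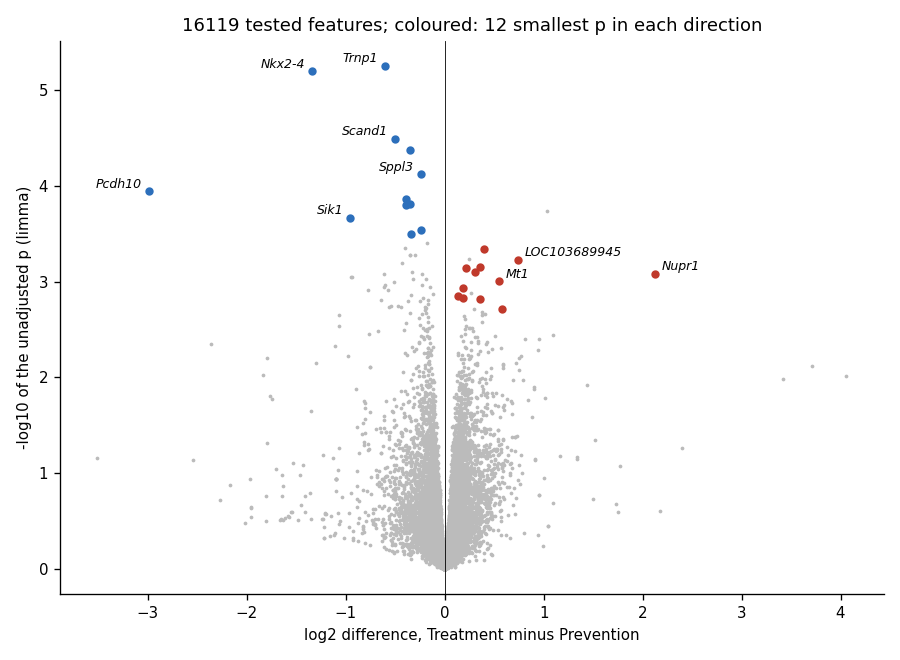
Each point is 1 of 16119 tested features, with the log2 difference, Treatment minus Prevention, on the x axis and -log10 of the unadjusted limma p on the y axis. Coloured points are the 12 genes with the smallest p in each direction, red higher and blue lower in Treatment. Trnp1 and Nkx2-4 stand at the top on the side lower in Treatment, and Pcdh10 has the largest negative difference among the coloured genes.

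The 24 genes with the smallest p, 12 in each direction, are described first. Of these, 14 had groups that did not overlap, 8 lower and 6 higher in Treatment, which the choice by p favours. Trnp1 encodes a nuclear protein known in the mouse for its part in the growth of cortical progenitors. It measured 948, 1124, 879, 832 and 730 in Treatment replicates 1, 2, 5, 6 and 7, against 1608, 1193, 1196, 1595 and 1256 in Prevention replicates 1 to 5. The difference was -0.60 (95% interval -0.816 to -0.388). All 5 Prevention libraries also lay above every OVX library (865 to 1142) and every SHAM library (836 to 1010), while Treatment replicates 6 and 7 lay below these ranges and the other 3 within the OVX range.

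Nkx2-4 encodes a homeobox transcription factor of the ventral forebrain. It was low, at 29.7, 29.1, 13.6, 16.7 and 21.5 in Treatment, against 81.3, 63.3, 46.9, 47.6 and 44.7 in Prevention. The difference was -1.34 (95% interval -1.82 to -0.861), and every Prevention library lay above every OVX library (21.8 to 39.9) and SHAM library (16.1 to 27.7). The sum of 24 hypothalamic and pituitary genes, to which Nkx2-4 belongs, lay between 1014 and 5325 in Treatment and between 1129 and 10581 in Prevention libraries. In Prevention replicates 1 to 5 this sum was 2708, 1129, 1169, 10581 and 1530. The part of neighbouring tissue in the Nkx2-4 difference was not tested. Otp, Gh1, Cga, Hmx2, Hmx3 and Fezf1 were at 0 in at least 1 library of both groups.

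Further genes among the 12 were also lower in Treatment. Jund, a member of the AP-1 transcription factors, measured 4167, 4802, 4540, 4475 and 3830 in Treatment, against 6006, 5920, 5071, 5756 and 5025 in Prevention (difference -0.35, adjusted p = 0.169). Scand1, a gene for a SCAN domain protein, measured 1354, 1583, 1331, 1216 and 984 in Treatment, against 2078, 1810, 1634, 1855 and 1708 in Prevention (-0.50, adjusted p = 0.169). Both genes were lower in every Treatment library than in any Prevention library. Nr2f6, an orphan nuclear receptor, averaged 986 ± 103 in Treatment and 1290.5 ± 124 in Prevention (-0.39; SD and n = 5 per group, here and for all averages that follow). Wdr82, a subunit of histone H3 lysine methyltransferase complexes, averaged 2354 ± 130.3 in Treatment and 2771 ± 169 in Prevention (-0.23). Dact3, a regulator of Wnt signalling, averaged 6452.5 ± 731 in Treatment and 8210 ± 483 in Prevention (-0.35). These 3 genes did not overlap between the groups either, with adjusted p of 0.363 for Wdr82 and 0.259 for the other 2.

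The remaining 5 genes of the lower side were less even. Sik1, a kinase induced by cAMP signalling, measured 1959, 1690, 986, 918 and 853 in Treatment, against 2098, 2824, 3561, 1969 and 1676 in Prevention (-0.95, adjusted p = 0.289). Replicates 1 and 2 of Treatment lay within the Prevention range and the other 3 far below it, close to the OVX median of 969. Pcdh10, a cell adhesion protocadherin, measured 52221, 58875, 6802, 6596 and 6938 in Treatment, against 123120, 116980, 157560, 178650 and 75163 in Prevention (-2.99, adjusted p = 0.259). Its levels did not overlap between the estradiol groups, but OVX libraries spread from 6715 to 100490, and its Treatment values divide as LOC257642 does. C1qtnf4, a secreted C1q and TNF related protein (-0.39), Sppl3, an intramembrane protease of the Golgi (-0.24), and Marcks, an actin-binding substrate of protein kinase C (-0.34), overlapped between the groups, with adjusted p of 0.259, 0.242 and 0.363.

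On the other side, 12 genes were higher in Treatment. Nupr1, a small stress-induced nuclear protein, had the largest difference, 2.12, at 52.5, 145, 135, 129 and 117 in Treatment, against 42.9, 19.1, 2.88, 34.9 and 84.6 in Prevention (adjusted p = 0.447). Treatment replicate 1 lay within the Prevention range, and the other 4 lay above it and above every OVX library (31.4 to 107.3). Mt1, a metal-binding metallothionein, measured 149, 193, 214, 194 and 271 in Treatment, against 138, 153, 133, 119 and 144 in Prevention (0.55, adjusted p = 0.453). Only Treatment replicate 1 reached down into the Prevention range.

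Glb1, the lysosomal beta-galactosidase, measured 757, 797, 868, 780 and 818 in Treatment, against 736, 672, 583, 638.5 and 622 in Prevention (0.31, adjusted p = 0.447), without overlap. Calr4, of the calreticulin chaperone family, averaged 257 ± 23.9 in Treatment and 195 ± 18.7 in Prevention (0.39), and Anxa5, which binds phosphatidylserine, 2010.0 ± 103 in Treatment and 1765 ± 93.9 in Prevention (0.19). Pnn, a splicing and adhesion protein (0.22), Ccdc180, a coiled-coil gene (0.58), and LOC100364435 (0.36) complete the 6 without overlap. The differences of Xrcc4, of DNA end joining (0.36), Pon2, a paraoxonase of membranes (0.18), and LOC103689945 (0.74) came with overlap. Adjusted p on the higher side lay between 0.426 for Calr4 and 0.499 for Ccdc180.

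**Figure D2:**
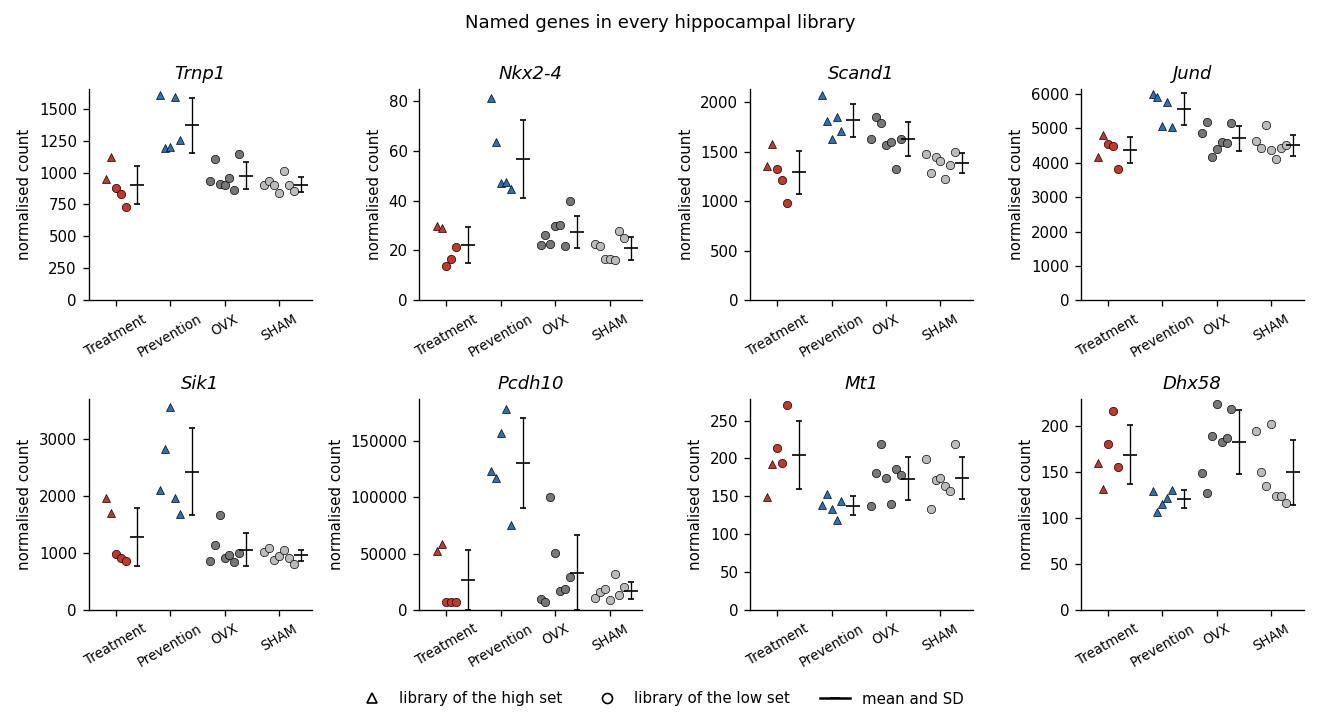
Normalised counts (y axes) of 8 genes in each library of the Treatment, Prevention, OVX and SHAM groups, with the mean and SD at the right of each group. Triangles are high set and circles low set libraries. Trnp1 and Nkx2-4 are higher in each of the 5 Prevention libraries than in any other library drawn, whereas Sik1 and Pcdh10 divide the Treatment libraries by set.

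Relative to the OVX libraries, Treatment means lay within the range for most of these genes. For 20 of the 24 the Treatment mean lay within the range of the 7 OVX libraries, and for 4 of the 24 the Prevention mean did. Over the 193 genes without overlap the counts were 176 for Treatment and 112 for Prevention, and against SHAM 167 and 101. All 5 Treatment libraries lay outside the OVX range on one side for 4 of the 193, and all 5 Prevention libraries for 29. No test was made of these counts, and the same shares over all tested genes are not given here. All Prevention libraries are high set, while Treatment replicates 5, 6 and 7 and all OVX and SHAM libraries are low set. Position and set cannot be told apart for Prevention, and only in part for Treatment.

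Treatment replicates 1 and 2 alone give the comparison within the high set. All 24 genes kept their direction there, and 17 had an unadjusted p under 0.05 (background 3.7%), but these 2 libraries were among those by which the 24 were chosen. For 18 of the 24 the high set difference was at least 50% of that of Treatment replicates 5, 6 and 7. Trnp1 differed by -0.39 in the high and -0.74 in the low set, Nkx2-4 by -0.89 and -1.65, Jund by -0.31 and -0.38, and Calr4 by 0.45 and 0.36. Sik1 at -0.36 and -1.35, Pcdh10 at -1.17 and -4.20, and LOC103689945 at 0.27 and 1.06 differed most between sets. Scand1 at -0.31 and -0.63, Marcks at -0.16 and -0.46, and Mt1 at 0.31 and 0.71 were likewise more than 2 times as large in the low set. In the high set no gene passed (0 of 16119, 0%, smallest adjusted p 1). With the low set Treatment libraries alone 44 passed (0.273%), 37 lower and 7 higher, of which 36 overlapped when all 5 Treatment libraries were used. That contrast sets low set against high set libraries, so estradiol timing and set cannot be told apart in it. LOC257642, which defines the sets, is among the 44, as is LOC500035. The 44 features hold 40 distinct sets of values, since 5 unnamed features on the lower side are identical in every library.

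**Figure D3:**
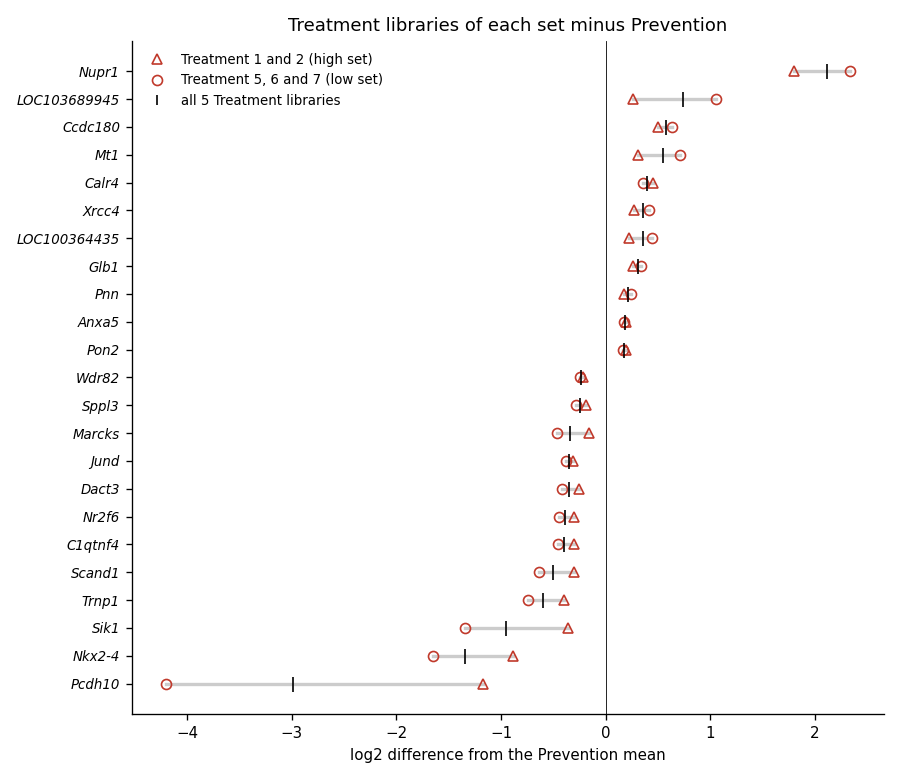
Log2 difference from the Prevention mean (x axis) for 23 of the 24 genes with the smallest p: triangles for Treatment replicates 1 and 2 (high set), circles for replicates 5, 6 and 7 (low set), bars for all 5. Both markers lie on the same side of 0 for all 23 genes drawn, and they lie farthest apart for Pcdh10, at -1.17 and -4.20.

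Gene lists for 29 pathways and cell types held 650 tested genes. Every Treatment library lay above every Prevention library for 3 of them and below for 7, which is 10 of 650 against a background of 1.2%. Lists are described by counts and medians only, since they were drawn up with earlier results known. For 28 of the 29 the median moved by over 1.5 times or changed sign when 1 Treatment or Prevention library was left out. The glucocorticoid list was the exception by a small margin: its median of 0.14 moved between 0.13 and 0.21.

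Glucocorticoid-responsive genes leaned towards Treatment. Of 29 tested, 23 had a positive difference (median 0.14), and 8 had an unadjusted p under 0.05, all higher (27.6%, background 2.76%). Pdk4, a kinase that limits glucose oxidation, measured 369, 294, 365, 508 and 614 in Treatment, against 282, 345, 182, 285 and 146 in Prevention (0.81, adjusted p = 0.587; 0.47 in the high and 1.03 in the low set). Its Treatment levels all lay above the OVX range (121 to 273), as did those of Prevention replicates 1, 2 and 4. Plin4, of lipid droplets, averaged 364 ± 54.8 in Treatment and 272 ± 33.6 in Prevention (0.42, adjusted p = 0.608; 0.61 in the high and 0.29 in the low set). Mt1, above, is also one of the 8.

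The other 5 of the 8, named after their values were seen, complete the count. Sult1a1, a sulfotransferase, measured 575, 603, 595, 654 and 596 in Treatment, against 479, 422, 479, 522 and 516 in Prevention (0.32), without overlap. Hif3a, a hypoxia-inducible factor subunit (0.91), Nfkbia, the inhibitor of NF-κB (0.39), Ddit4, an inhibitor of mTOR signalling (0.33), and Mertk, a phagocytic receptor (0.23), overlapped. Other well known glucocorticoid receptor targets, named after their values were seen, did not reach an unadjusted p under 0.05. Tsc22d3, also known as Gilz, averaged 3443 ± 371 in Treatment and 2820 ± 424 in Prevention (0.29, adjusted p = 0.914). Sgk1, a kinase of ion transport, averaged 7422 ± 1794 in Treatment and 6139 ± 1790 in Prevention (0.29), and Fkbp5, a chaperone of the glucocorticoid receptor, 2804 ± 303 in Treatment and 2677 ± 476.5 in Prevention (0.08).

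The mean level of the list gave 9.84, 9.88, 9.80, 9.95 and 9.91 in Treatment, against 9.75, 9.81, 9.57, 9.77 and 9.56 in Prevention, on the log2 scale. Treatment replicate 5 lay just within the Prevention range and the other 4 above it. The 5 Treatment values also lay above all OVX (9.49 to 9.74) and SHAM values (9.40 to 9.74). So did those of Prevention replicates 1, 2 and 4. The median difference was 0.17 for the high set, 0.15 for the low set and 0.18 without the libraries with thalamic carry-over. The hour of tissue collection was not given in the labels.

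**Figure D4:**
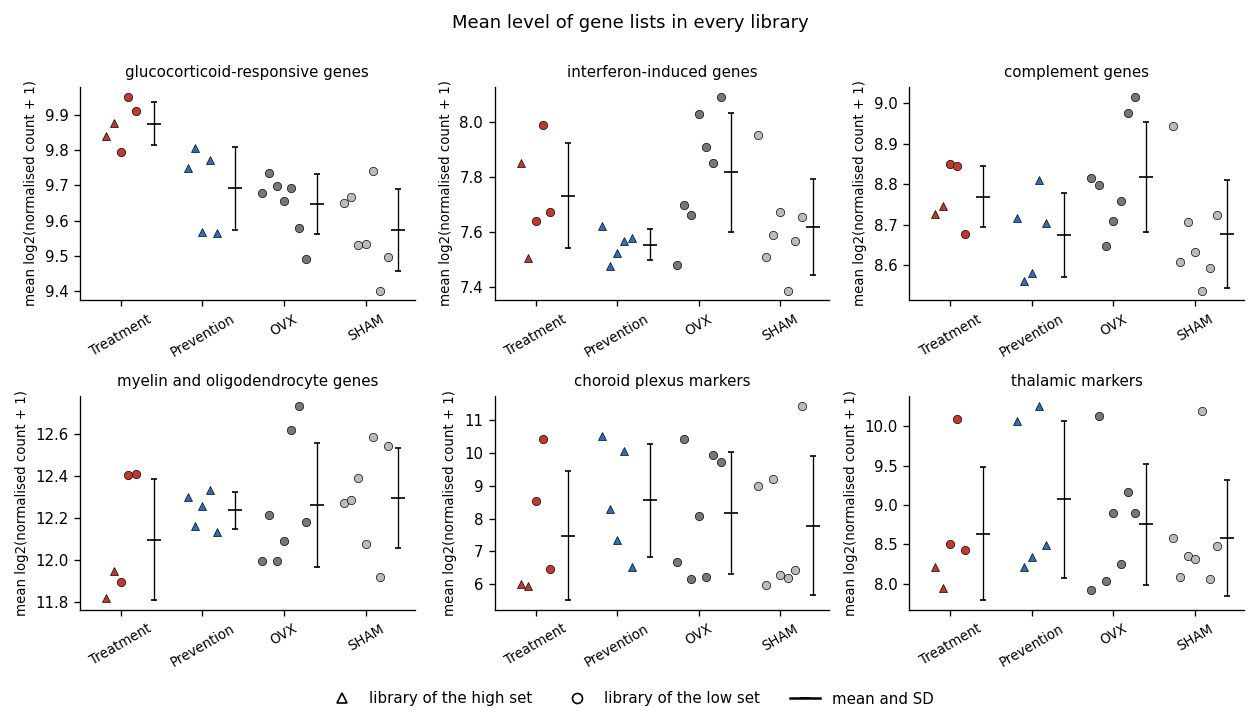
Mean log2(normalised count + 1) of 6 gene lists (y axes) in each library, by group, with the mean and SD. Triangles are high set and circles low set libraries. The group mean of glucocorticoid-responsive genes is highest in Treatment, though Prevention replicate 2 lies above Treatment replicate 5. Interferon scores of Treatment, and of Prevention apart from replicate 2, lie within the OVX range. Choroid plexus and thalamic markers vary widely within groups.

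Interferon-induced genes had a positive difference in 36 of 42 (median 0.13), against 48.9% of all tested genes. At an unadjusted p under 0.05 there were 4, all higher (background 2.76%). Dhx58, a cytoplasmic sensor of viral RNA, measured 160, 132, 180, 217 and 156 in Treatment, against 129, 106, 115, 122 and 130 in Prevention (0.47, adjusted p = 0.740; 0.27 in the high and 0.60 in the low set). Treatment stood above Prevention without overlap, and inside the OVX range (127 to 224). Rtp4, an interferon-induced receptor transporter, measured 131, 93.2, 125, 154 and 119 in Treatment, against 94.2, 93.6, 75.02, 71.4 and 78.6 in Prevention (0.58, adjusted p = 0.789). Ifit3, which binds viral RNA complexes, averaged 205 ± 29.6 in Treatment and 161 ± 19.1 in Prevention (0.34), and Ifih1, the sensor MDA5, 204 ± 14.6 in Treatment and 172 ± 20.4 in Prevention (0.25). Ifih1 is named after its values were seen.

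The interferon score was 7.85, 7.51, 7.64, 7.99 and 7.67 in Treatment, against 7.62, 7.48, 7.52, 7.57 and 7.58 in Prevention. Replicate 2 of Treatment lay within the Prevention range and all others above it, with replicate 6, which carries thalamic RNA, highest. All lay within the OVX range (7.48 to 8.09) apart from Prevention replicate 2, which lay just under it. The median difference was 0.11 in the high set, 0.17 in the low set, 0.11 without the libraries with thalamic carry-over, and 0.08 without Treatment replicate 6 alone. The sum of 23 homeostatic microglia genes lay between 17566 and 18236 in Treatment and between 17200 and 19867 in Prevention libraries, and that of 12 blood cell markers between 4538 and 7783 in Treatment and between 5067 and 10171 in Prevention. Ppbp, S100a8 and Cd79b were at 0 in at least 1 library of both groups, and the part of these cells in the result was not tested. In bulk tissue fewer cells of a type and less RNA per cell cannot be told apart.

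Sequence before the start of Ifit3 and of Mt1 is shown because it holds the motif their pathway is known for. It is RefSeq sequence of the GRCr8 rat assembly, 250 bases up to the start, 5′ to 3′ on the gene's strand. Capitals mark matches on either strand to the interferon-stimulated response element, searched as GAAA, any 2 bases and GAAA (1 match in Ifit3), or to the metal response element, searched as TGCNCNC (7 matches in Mt1). The window of Ifit3 is chr1:241527076-241527325, plus strand, and that of Mt1 is chr19:10832976-10833225, minus strand.
Ifit3: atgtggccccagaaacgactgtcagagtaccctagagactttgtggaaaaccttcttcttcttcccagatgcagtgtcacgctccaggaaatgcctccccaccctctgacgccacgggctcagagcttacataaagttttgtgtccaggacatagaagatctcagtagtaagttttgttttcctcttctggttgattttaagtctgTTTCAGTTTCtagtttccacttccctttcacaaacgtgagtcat
Mt1: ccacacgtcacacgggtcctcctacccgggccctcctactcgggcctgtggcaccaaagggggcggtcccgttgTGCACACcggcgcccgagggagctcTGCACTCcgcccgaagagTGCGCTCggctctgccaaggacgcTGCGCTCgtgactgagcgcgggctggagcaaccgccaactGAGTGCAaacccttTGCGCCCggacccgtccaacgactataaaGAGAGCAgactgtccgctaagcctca

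The interferon motif was found in 21 of 32 interferon list promoters in the table (65.6%), against 3.92% of 33469 rat promoters of 300 bases (250 before to 50 after the start), and in 8 of 21 promoters of MHC class I presentation genes (38.1%). The metal motif is short and lay in 8 of 12 promoters of its list (66.7%) and in 49.6% of all. The glucocorticoid response element, searched as GNACA, any 3 bases and TGTNC, was in 2 of 26 (7.69%) of the glucocorticoid list and 0.439% of all, and the estrogen response element, GGTCA, any 3 bases and TGACC, in 0 of 14 of the estrogen list and 0.0269% of all. Matches were sought on both strands, and overlap between different motifs was not counted. They describe the letters and say nothing of which factor was bound.

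MHC class I presentation genes had 5 members at an unadjusted p under 0.05, all higher, of 24 tested (20.8%, background 2.76%). The list median was 0.07 with 19 positive differences, 0.00 in the high and 0.11 in the low set, and lay between 0.04 and 0.12 when 1 library was left out. RT1-T24-4, a class I heavy chain gene, measured 970, 767, 839, 1005 and 677 in Treatment, against 681, 669, 704.5, 678 and 667 in Prevention (0.31, adjusted p = 0.698). The Prevention libraries lay close together, with Treatment replicate 7 among them and the other 4 Treatment libraries above. Psmb9, a subunit of the immunoproteasome (0.31), and Tapbpl, which edits peptides on class I molecules (0.37; 0.12 in the high and 0.53 in the low set), overlapped between the groups. RT1-A2 and RT1-T24-3 complete the 5 and are named after their values were seen. All 3 RT1 genes belong to a family of near-identical copies among which reads may be split, and their levels are uncertain. RT1-A2 measured 237 to 693 in Treatment and 44.3 to 314 in Prevention. MHC class II presentation genes were higher in 9 of 10 with a median of 0.24, none of them at an unadjusted p under 0.05, and the median was -0.07 in the high and 0.39 in the low set and 0.09 without Treatment replicate 5.

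Complement genes held members on both sides. Of 21 complement genes 15 had a positive difference (median 0.06). Cfb, factor B of the alternative pathway (0.42; 0.23 in the high and 0.55 in the low set), C1s, a protease of the C1 complex (0.39), and C4b, a C4 gene named after its values were seen (0.54), were higher at an unadjusted p under 0.05, and Itgam, the alpha chain of complement receptor 3, was lower (-0.36), against backgrounds of 2.76% higher and 2.62% lower. Itgam measured 436, 441, 743, 634 and 564 in Treatment, against 748, 633, 700, 805 and 659 in Prevention. Treatment replicates 1, 2 and 7 lay below every Prevention library and replicates 5 and 6 within the Prevention range. Its difference was -0.69 in the high and -0.14 in the low set.

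Cx3cr1, the fractalkine receptor of microglia, measured 618, 666, 602, 612 and 654 in Treatment, against 688, 778, 804, 721 and 758 in Prevention (-0.25, adjusted p = 0.802). The groups did not overlap, while the other 21 homeostatic microglia genes tested besides Itgam had an unadjusted p above 0.05 and the list median was 0.04. Among 18 genes of activated microglia and lysosomes 3 were higher at an unadjusted p under 0.05 (16.7%, background 2.76%), with a list median of 0.04 that was -0.06 in the high and 0.09 in the low set. Among the 3 were Lgals9, a galectin, at 605 ± 77.2 in Treatment and 479 ± 28.6 in Prevention (0.33), and Axl, a receptor for dying cells (0.14; 0.22 in the high and 0.08 in the low set).

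**Figure D5:**
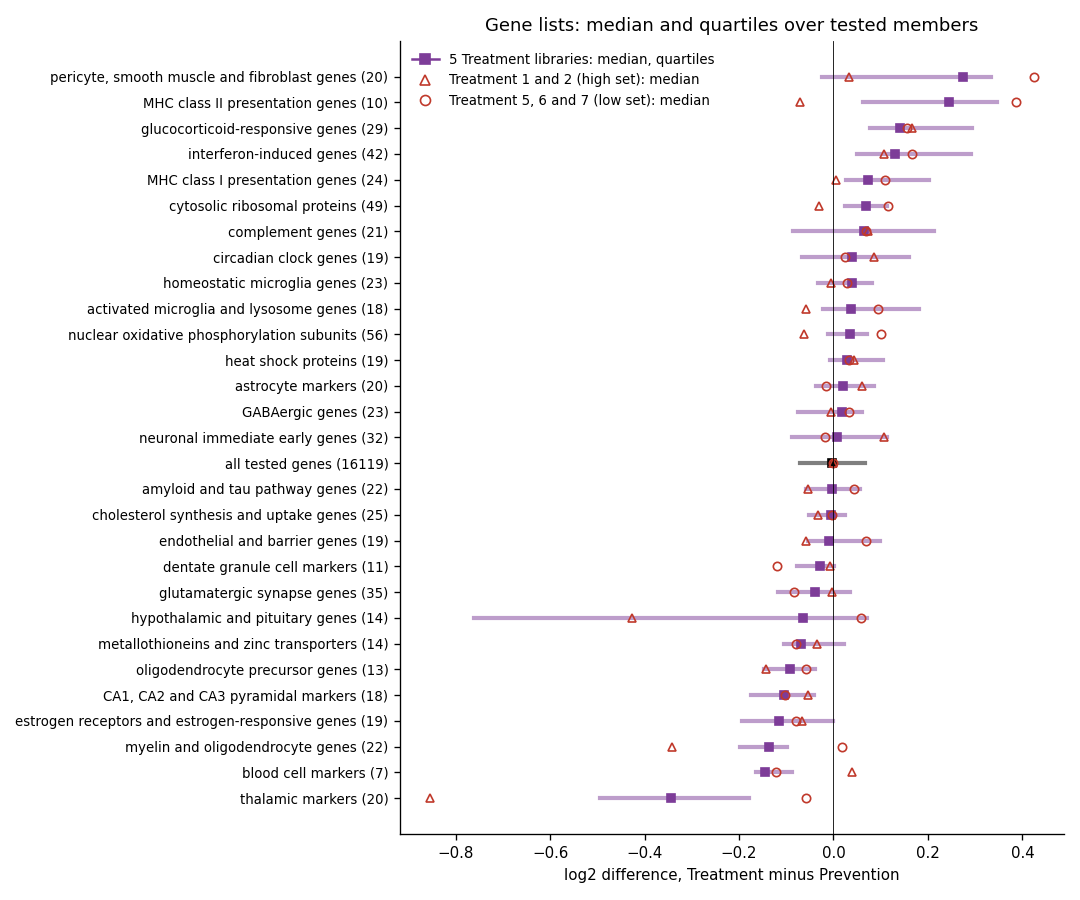
Median (squares) and quartiles (bars) of the log2 difference, Treatment minus Prevention (x axis), over the tested members of 28 gene lists and of all 16119 tested genes, with the medians for Treatment replicates 1 and 2 (triangles) and 5, 6 and 7 (circles). Choroid plexus markers, with a median of -1.16, are left off. Glucocorticoid-responsive and interferon-induced genes lie to the right of 0 with all 3 markers. So do the complement, MHC class I, circadian clock, heat shock and pericyte, smooth muscle and fibroblast lists. Myelin, MHC class II and ribosomal protein genes change side or lie apart by set.

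Zinc transporters differed from Mt1 in direction. Slc39a1, a zinc importer of the plasma membrane, measured 3853, 3918, 2639, 2741 and 2826 in Treatment, against 4088, 5375, 5568, 4168 and 4246 in Prevention (-0.56, adjusted p = 0.496). The groups did not overlap, but Treatment replicates 1 and 2 lay near the lowest Prevention libraries, with a difference of -0.26 (adjusted p = 1) in the high and -0.76 in the low set. Slc30a5 (-0.11) and Slc30a4 (-0.14), which load zinc into vesicles, were also lower at an unadjusted p under 0.05, and Mt2A, another metallothionein, averaged 909.9 ± 110 in Treatment and 801 ± 129.9 in Prevention (0.19). Of the 14 genes in the list 10 had a negative difference.

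Among clock genes, Clock, a driver of the circadian transcription loop, measured 3334, 3102.5, 3034, 3004 and 3258 in Treatment, against 3423, 3503, 3493, 3548 and 3489 in Prevention (-0.15, adjusted p = 0.893). The groups did not overlap, and Prevention lay above every OVX (2355 to 3277) and SHAM library (2959 to 3249). Dbp and Per3, both outputs of that loop, were higher in Treatment (0.28 and 0.26) with overlap. Of 32 neuronal immediate early genes Sik1, above, was the only one at an unadjusted p under 0.05, and the list median was 0.01, with Fos at 621 ± 35.2 in Treatment and 636 ± 237 in Prevention and Bdnf at 1301.5 ± 203 in Treatment and 1302 ± 238 in Prevention.

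Genes of neurons held few members past an unadjusted p of 0.05. Markers of CA1, CA2 and CA3 pyramidal cells had a negative difference in 16 of 18 (median -0.10), with Bok, a Bcl-2 family gene, the only one at an unadjusted p under 0.05 (-0.25). Dgkh, a diacylglycerol kinase of dentate granule cells named after its values were seen, measured 464, 694, 579, 624 and 632 in Treatment, against 788, 813, 1220, 695 and 800 in Prevention (-0.51, adjusted p = 0.952), and 0 of 11 dentate markers tested had an unadjusted p under 0.05. The highest Treatment library, replicate 2, lay just under the lowest Prevention library, replicate 4. Among glutamatergic synapse genes 13 of 35 were higher (median -0.04). Among GABAergic genes Sst, the somatostatin of interneurons, measured 2115, 2165, 2461, 1903 and 2677 in Treatment, against 1157, 1952.5, 1532, 1890 and 2152 in Prevention (0.41, adjusted p = 0.752), and Gabra4, a GABA-A receptor subunit, was lower (-0.21).

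Glial and vascular genes varied with single libraries. Myelin and oligodendrocyte genes had a negative difference in 21 of 22 (median -0.14), but none at an unadjusted p under 0.05. Mbp, the myelin basic protein, measured 134300, 146380, 133700, 234240 and 208540 in Treatment, against 204100, 167920, 176250, 198940 and 170680 in Prevention. Treatment replicates 1, 2 and 5 lay below every Prevention library and replicates 6 and 7 above, and the list median was -0.34 in the high and 0.02 in the low set. S100b, a calcium-binding protein of astrocytes, measured 44719, 41719, 47256, 45488 and 42936 in Treatment, against 39705 to 41052 in Prevention (0.13, adjusted p = 0.841), without overlap. Genes of pericytes, smooth muscle and fibroblasts had a median of 0.27, 0.03 in the high and 0.42 in the low set, with Myl9 at 0.42 and Lum at 0.54, and was 0.04 without Treatment replicate 5. Their sum lay between 11494 and 17264 in Treatment and between 11571 and 13324 in Prevention libraries, with no member at 0.

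Ribosomal protein and respiratory genes differed by library set within Treatment. Between groups the mean ribosomal level on the log2 scale was 12.10 in Prevention (high set), 12.11 in SHAM and 12.20 in OVX (both low set). Of 49 cytosolic ribosomal protein genes 43 had a positive difference (median 0.07), 11 in the high set and 46 in the low set. Rps24 differed by 0.20 over all libraries, 0.03 in the high and 0.31 in the low set, and Rpl26 by 0.19, -0.02 and 0.33 in the same order. Rps21 went the other way, at -0.20, -0.15 and -0.24, without overlap between the groups. Of 56 nuclear genes of oxidative phosphorylation 37 had a positive difference (median 0.03), 4 in the high set and 48 in the low set, and none had an unadjusted p under 0.05.

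Choroid plexus markers were lower in all 19 tested (median -1.16), with none at an unadjusted p under 0.05, at a median of -2.82 in the high and -0.06 in the low set. Ttr, their thyroxine carrier, measured 337, 281, 12498, 71606 and 1019 in Treatment, against 68774, 9262, 3213, 46280 and 798 in Prevention. Thalamic markers were lower in 19 of 20 (median -0.34, and -0.07 without the libraries with carry-over). Without Treatment replicate 6 and Prevention replicates 1 and 4, Trnp1 differed by -0.42, Nkx2-4 by -1.15, Jund by -0.30 and Mt1 by 0.50. That fit also left out OVX replicate 2 and SHAM replicate 5, which carried thalamic RNA, and no gene passed (0 of 16119, 0%).

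The estrogen receptors and genes known to respond to estrogen in other tissues did not separate the groups. Of 19 tested none had an unadjusted p under 0.05, and 5 had a positive difference (median -0.12, and -0.04 without Prevention replicate 1). Esr1 measured 99.6, 83.8, 75.1, 137 and 29.5 in Treatment, against 83.6, 33.4, 87.4, 145 and 137 in Prevention, a difference of -0.19 (95% interval -0.929 to 0.557) that turns to 0.15 without Treatment replicate 7. Esr2 averaged 28.8 ± 10.2 in Treatment and 25.7 ± 6.92 in Prevention (0.13, 95% interval -0.475 to 0.735). Gper1 averaged 75.1 ± 13.3 in Treatment and 78.2 ± 10.4 in Prevention (-0.06, 95% interval -0.407 to 0.278). Pgr, the progesterone receptor and a target of ERα in other tissues, measured 404, 394, 459, 443 and 370 in Treatment, against 391, 492, 473, 540 and 487 in Prevention (-0.20, 95% interval -0.460 to 0.062). The groups overlapped for all 4 genes, and all 4 intervals include 0 and leave room for a change in either direction.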

How the data were processed

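Hippocampal RNA of female rats was sequenced, and the deposited table holds normalised counts per feature and library, a signal in arbitrary units that the authors made. Per the submitters' processing notes, kallisto 0.43 and DESeq2 (no version) were used. Build, annotation, filters, batches and read counts were not given in the sources used here, so counting intervals were not computed and the depth is known only as column totals (35.4 to 38.8 M normalised counts over 24 libraries).

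Groups were taken from the labels. After the transform log2(normalised count + 1), limma 3.58.1 was run in R 4.3.3 with 1 mean per group over all 24 libraries, the empirical Bayes step with a trend, the contrast Treatment minus Prevention, and Benjamini-Hochberg adjustment over 16119 of 20318 features with a mean of at least 10 over all libraries. Of the features 2378 had no symbol (954 tested), 205 shared identical values with another, and 87.5% of the symbols matched RefSeq. Figures used Python 3.11.15 and matplotlib 3.10.9. Promoter motifs were searched exactly, on both strands; 51 of 66 named genes had a promoter in the table. The fits were tested on simulated data.

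The comparison, the gene lists and the genes to name were chosen with earlier results of these data known. Except for a few genes that are not reported here, the text names the 12 genes with a symbol and the smallest p in each direction, up to 3 members per list at an unadjusted p under 0.05, and Esr1, Esr2, Gper1, Pgr, Trnp1, Nkx2-4, Ttr, Tcf7l2, LOC257642 and LOC500035; others are named as markers or, after their values were seen, to complete a count. The library sets divide at 16 on the log2 scale of LOC257642, and libraries with a mean thalamic marker level above 9.5 were taken as carrying thalamic RNA. These were Prevention replicates 1 and 4, Treatment replicate 6, OVX replicate 2 and SHAM replicate 5. Treatment and Prevention libraries with the same replicate number were compared by correlating their deviations from the group mean. This check cannot exclude pairing, and the libraries were treated as unpaired. Alternatives were other pseudocounts, filters and scalings, the 10 estradiol libraries alone, a robust step, the replicate number as a block, marker scores or the library set as terms, each set alone, and leaving out each library.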

Additional observations from a re-analysis of the deposited data

Results flagged for a closer look

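Among 190 sets of 5 libraries (each named gene and each list in Treatment and in Prevention), 7 held 1 library far from the other 4. That is a smaller share than the about 5%, or 1 in 20, that chance alone gives. The sets are not independent, since some named genes are also list members. Nupr1 was at 52.512 normalised counts in Treatment replicate 1, below the other 4 Treatment libraries. In Prevention replicate 3, S100b was lowest of its group at 39705, LOC257642 highest at 868950 and LOC500035 highest at 68769. Treatment replicate 6 stood above its group for Tcf7l2, a thalamus-enriched transcription factor, at 1573 normalised counts, for the mean level of thalamic markers at 10.09, and for that of hypothalamic and pituitary genes at 7.13, both on the log2 scale.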

How the results depend on the processing

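No gene passed an adjusted p of 0.05 by limma in the reported analysis, and 2 (Trnp1 and Nkx2-4) passed with a pseudocount of 8 or a robust empirical Bayes step, 3 (also Sppl3) with the thalamic score as covariate, and 44 with the low set Treatment libraries alone. Leaving out 1 library gave 0 to 11 passing genes, 638 to 1248 at an unadjusted p under 0.05 against 868, and 277 to 526 without overlap against 193, where fewer libraries make overlap less likely. The count at an unadjusted p under 0.05 was 1433 with both marker scores as covariates and 1662 with the low set alone, but 597 with the high set alone, 630 with the library set as a term and 670 without the carry-over libraries. Deviations from the group mean correlated at -0.298, 0.101 and -0.111 between libraries of the same replicate number, which cannot exclude pairing. With the replicate block 0 genes passed, 880 had an unadjusted p under 0.05, and Esr2 differed by -0.001395. With the library set as a term, as with the high set alone, differences turned to -0.01693 for Rpl26, 0.0745 for Esr1, 0.4879 for LOC257642 and 0.5035 for LOC500035. Gper1 turned to 0.01914 with the choroid plexus score, 0.01908 with both scores and 0.03017 in the low set. Tcf7l2 turned to 0.03855 with the thalamic score and 0.02467 without the carry-over libraries, and Ttr to 0.03618 in the low set. Leaving out 1 library moved Esr1 between -0.5238 and 0.1485, Esr2 between -0.0274 and 0.2519, and Gper1 between -0.1551 and 0.01614. The causes were not tested. Leaving out the carry-over libraries, and every alternative for the genes without overlap, were chosen after seeing the data. Without read counts, the depth behind low genes such as Nkx2-4 is unknown.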
